A study of Mus musculus with 24 samples.

Results

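The goblet cell and mucus genes described here are 8 genes chosen by symbol: Muc2, Fcgbp, Zg16, Tff3, Agr2, Spink4, Spdef and Atoh1. All 8 were among the 24346 symbols in the RNA-seq tables of mouse colorectal tissue, and all 8 were expressed above the filter, which asked for 4 or more libraries with an FPKM of 1 or more and left 13799 symbols. FPKM counts sequenced fragments relative to transcript length and to the size of the library, so levels can be compared between genes of a library. Between libraries the summed FPKM differed, with medians of 516111 in tumors and 674888 in normal tissue, so such comparisons also depend on scaling. The study compared tumor and normal tissue from mice whose genotype was annotated as a knockout of c-MAF (KO) or as wild type (WT), and every mouse had been given azoxymethane, a carcinogen, and dextran sulfate sodium, a polymer that causes colitis. The titles split the 24 libraries further. The KO label covers KO-1-hetero (3 tumor and 2 normal libraries), KO-8-hetero (3 and 2) and KO-8-homo (3 and 2). The WT label covers WT-young (4 and 2) and WT-old (1 and 2). The labels explain neither the leading numbers 1 and 8 nor the strain, give age only as the words young and old, and do not say whether the deletion was limited to one cell type. They also do not say which libraries came from separate animals, so the p-values measure the spread between these samples, which may be technical.

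Goblet cells are secretory cells of the intestinal epithelium that make the mucus layer between the gut contents and the colon wall. Their fate is set by the transcription factor Atoh1, which Notch signalling represses in neighbouring absorptive cells, and their maturation by the ETS-family factor Spdef. Agr2 is a protein disulfide isomerase of the endoplasmic reticulum that is needed to produce Muc2, the gel-forming mucin of the colon. Fcgbp is a large secreted protein that binds Muc2 in the mucus gel, Zg16 is a secreted lectin that binds bacteria, Tff3 is a trefoil peptide involved in mucosal repair, and Spink4 is a secreted protein of the Kazal inhibitor family. In bulk tissue, fewer goblet cells and less RNA per goblet cell cannot be told apart.

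On mouse build GRCm38, GENCODE vM21 places 3 of the genes on chromosome 7, namely Muc2 at chr7:141690340-141754693 on the plus strand, Fcgbp at chr7:28071236-28120862 on the plus strand and Zg16 at chr7:127050156-127087328 on the minus strand. Tff3 (chr17:31125306-31129646) and Spdef (chr17:27714352-27728955) lie on the minus strand of chromosome 17. Agr2 lies at chr12:35992907-36004087, Spink4 at chr4:40920052-40931395 and Atoh1 at chr6:64729125-64731245, all on the plus strand. All 8 are annotated as protein-coding genes.

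RefSeq promoter windows on GRCm38.p6 were found for 5 of the 8 genes (Muc2, Fcgbp, Agr2, Spdef and Atoh1). The windows of Muc2, Agr2 and Spdef are shown because these 3 genes varied together across tumors. That of Fcgbp is shown because it holds the same 4 marked motifs as that of Muc2. Each is the 250 bases upstream of the RefSeq start, written 5′ to 3′ on the gene's own strand. They cover chr7:141690090-141690339 (Muc2), chr12:35992675-35992924 (Agr2), chr17:27728952-27729201 (Spdef) and chr7:28070986-28071235 (Fcgbp). The bases after the start were found in a GENCODE transcript for Muc2, Agr2 and Spdef, but not for Fcgbp. Capitals mark the E-box CAGCTG, the ETS core letters AGGAA and AGGAT and the TATA-like letters ATATAA, each searched on both strands.
Muc2: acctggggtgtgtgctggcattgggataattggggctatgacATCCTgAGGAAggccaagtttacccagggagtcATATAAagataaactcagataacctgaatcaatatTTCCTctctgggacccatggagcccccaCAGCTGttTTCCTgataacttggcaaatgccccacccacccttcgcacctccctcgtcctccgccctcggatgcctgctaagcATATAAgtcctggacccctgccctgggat
Agr2: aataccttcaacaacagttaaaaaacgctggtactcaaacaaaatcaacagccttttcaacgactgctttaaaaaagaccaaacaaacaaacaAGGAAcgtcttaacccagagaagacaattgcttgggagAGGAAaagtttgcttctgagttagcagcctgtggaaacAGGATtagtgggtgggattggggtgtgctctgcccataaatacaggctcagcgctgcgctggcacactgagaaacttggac
Spdef: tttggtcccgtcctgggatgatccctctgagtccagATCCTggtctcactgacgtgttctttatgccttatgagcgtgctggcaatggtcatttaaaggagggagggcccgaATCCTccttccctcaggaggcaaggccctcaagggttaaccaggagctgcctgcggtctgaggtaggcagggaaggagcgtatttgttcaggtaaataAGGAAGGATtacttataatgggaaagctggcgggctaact
Fcgbp: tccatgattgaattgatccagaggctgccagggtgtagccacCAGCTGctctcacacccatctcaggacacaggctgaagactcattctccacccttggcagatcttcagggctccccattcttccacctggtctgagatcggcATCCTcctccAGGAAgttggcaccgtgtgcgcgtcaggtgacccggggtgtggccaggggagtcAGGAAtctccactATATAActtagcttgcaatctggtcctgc

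The letters CAGCTG occurred in 2 of the 5 windows, starting 112 bases upstream of the Muc2 start and 208 bases upstream of the Fcgbp start, against 13.0% of all 32851 promoters in the table. The letters ATATAA started 29 bases upstream in both Muc2 and Fcgbp, with another match 175 bases upstream in Muc2, and were found in 9.10% of all promoters. AGGAA was present in 4 of the 5 windows against 60.3% of all promoters, and AGGAT in 4 of the 5 against 35.8%. In Spdef, AGGAA and AGGAT overlapped at 40 and 36 bases upstream. The FOXA letters TGTTTAC were in none of the 5 windows and in 3.17% of all promoters, and none of these motifs was in the Atoh1 window. These matches are letters in a window and were not tested as binding sites.

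Together the 8 genes made up 1.46% to 3.33% of the summed FPKM of the normal libraries (median 2.72%) and 0.721% to 2.03% of that of the tumors (median 1.56%). Fragment totals are unknown, but relative depth ranged from 0.693 to 1.85 of the median library, and 12074 to 13290 genes had at least 1 FPKM. Maf, the gene named by the knockout label, was not lower in the KO-labelled libraries. It measured 2.62 to 7.40 FPKM in KO-labelled tumors and 1.63 to 7.26 FPKM in WT-labelled tumors, and 1.52 to 6.27 FPKM against 1.37 to 2.82 FPKM in normal tissue, so KO is used below only as the label. Xist, the RNA that coats the inactive X chromosome in female cells, was at least 1 FPKM in 6 libraries, which were tumor 3 and both normal libraries of KO-1-hetero and of KO-8-hetero, and the labels do not give sex.

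**Figure D1:**
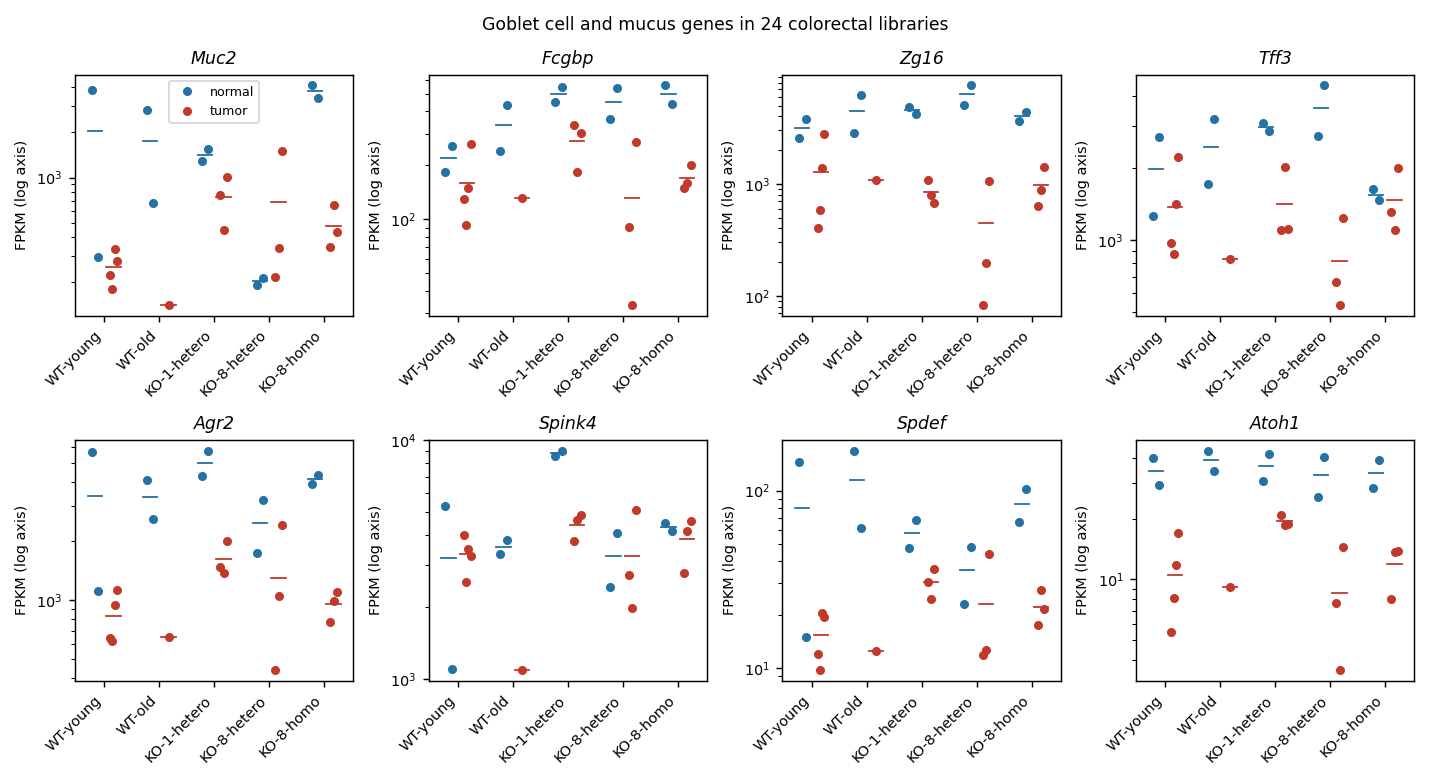
FPKM (log axis) of the 8 genes in each of the 24 libraries, by title group, with normal tissue in blue and tumors in red; points are libraries and bars are group means. Atoh1 shows all 14 tumors (highest 20.9) below all 10 normal libraries (lowest 25.6), whereas Muc2 ranges from 193 to 4114 FPKM within normal tissue.

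The first comparison was tumor against normal tissue within each label. Most of the genes were lower in tumors. With the WT label (5 tumors, 4 normal libraries), 5 of 8 passed the test and all 5 fell, namely Muc2, Zg16, Agr2, Spdef and Atoh1, where 30.4% of all tested genes passed and 14.8% fell. With the KO label (9 tumors, 6 normal libraries), 6 of 8 passed and all 6 fell, namely Fcgbp, Zg16, Tff3, Agr2, Spdef and Atoh1, where 47.2% of all tested genes passed and 23.2% fell. The median log2 difference of the 8 genes was -1.84 for WT and -1.30 for KO, against 0.025 and 0.023 over all tested genes. The test was limma on log2(FPKM + 1), two-sided, with Benjamini-Hochberg adjustment over all 13799 genes and a threshold of 0.05.

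**Figure D2:**
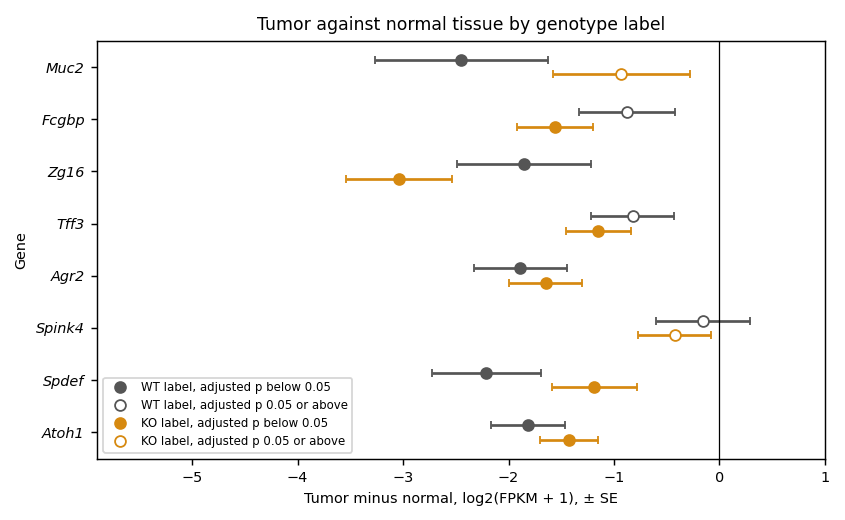
Tumor minus normal difference in log2(FPKM + 1) for the 8 genes, with the WT label in grey and the KO label in orange; bars are standard errors, filled points passed limma's adjusted p below 0.05. The differences of all 8 genes lie below 0, and Spink4 lies nearest to 0 with both labels.

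Atoh1, the factor that sets the secretory fate, separated tumor from normal tissue most cleanly. The WT-labelled tumors measured 5.46, 8.11, 11.7, 16.9 (WT-young) and 9.12 FPKM (WT-old), and the normal tissue of that label 39.9, 29.6, 43.5 and 34.5 FPKM. In KO-labelled libraries the lowest, median and highest values were 3.55, 13.9 and 20.9 FPKM in tumors and 25.6, 34.9 and 42.1 FPKM in normal tissue. The tumor and normal ranges did not overlap with either label. The difference was -1.82 (SE 0.352, limma adjusted p = 0.000747) with the WT label and -1.43 (SE 0.276, limma adjusted p = 0.000297) with the KO label. Both differences stayed past the threshold under every alternative run on the label comparisons, including another scaling, either Hox covariate and each library left out in turn.

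Spdef, which acts later in goblet cell maturation, was lower in tumors but overlapped. WT-labelled tumors measured 12.0, 9.75, 20.4, 19.4 and 12.4 FPKM, and normal tissue 145, 15.0, 168 and 61.7 FPKM. KO-labelled tumors ran from 11.9 through a median of 24.5 to 44.2 FPKM, and normal tissue from 23.1 through 57.1 to 102 FPKM. The overlap with the WT label came from WT-young normal 2, the lowest normal library at 15.0 FPKM. Spdef fell by 2.21 on the log2 scale (SE 0.519, limma adjusted p = 0.00314) with the WT label and by 1.18 (SE 0.408, limma adjusted p = 0.0209) with the KO label. Without KO-8-homo normal 2 the KO-label difference was -1.0 (limma adjusted p = 0.0583), and centring on epithelial markers left it at -0.54 (limma adjusted p = 0.235). The WT-label difference was -1.62 (limma adjusted p = 0.0854) without the 3 WT-old libraries.

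Agr2, the mucin-folding isomerase, was lower in tumors with both labels. WT-labelled tumors measured 638, 623, 942, 1131 and 648 FPKM, and normal tissue 5684, 1109, 4069 and 2598 FPKM. With the KO label, tumors ran from 441 through 1104 to 2417 FPKM, and normal tissue from 1744 through 4087 to 5764 FPKM. Here too WT-young normal 2 (1109 FPKM) lay inside the tumor range, and KO-8-hetero tumor 3 (2417 FPKM) inside the normal range. Agr2 fell by 1.89 (SE 0.445, limma adjusted p = 0.0033) with the WT label and by 1.65 (SE 0.35, limma adjusted p = 0.000676) with the KO label. Quantile normalization moved the KO-label value to -0.72 (limma adjusted p = 0.0974), and without the 3 WT-old libraries the WT-label value was -1.64 (limma adjusted p = 0.0608).

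Muc2, the gel-forming mucin itself, had the widest spread in normal tissue. WT-labelled tumors measured 224, 179.7, 336, 278 and 142 FPKM, and normal tissue 3819, 297, 2829 and 675 FPKM. With the KO label, tumors ran from 217 through 447 to 1508 FPKM, and normal tissue from 193 through 1426 to 4114 FPKM. With the WT label only 1 of the 4 normal libraries, WT-young normal 2, lay within the tumor range, but with the KO label both KO-8-hetero normal libraries lay below every KO-labelled tumor. Muc2 fell by 2.45 (SE 0.823, limma adjusted p = 0.0280) with the WT label, and measured -0.93 (SE 0.647, limma adjusted p = 0.243) with the KO label, which did not pass. Without the 6 libraries with Xist of at least 1 FPKM, which leaves KO-8-homo as the KO-labelled normal tissue, the KO-label difference was -3.13 (limma adjusted p = 0.00451). The WT-label call did not hold without WT-young tumor 2, WT-young normal 1, WT-old tumor 1 or WT-old normal 1 (limma adjusted p = 0.0542, 0.106, 0.0504 and 0.102 in that order). It was also lost under quantile normalization (-2.02, limma adjusted p = 0.0653), under centring on epithelial markers (-1.90, 0.0624) and without the 3 WT-old libraries (-2.10, 0.180).

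Zg16, the bacteria-binding lectin, had the largest fall with the KO label. WT-labelled tumors measured 403, 585, 1372, 2788 and 1080.2 FPKM, and normal tissue 2559, 3789, 2826 and 6155 FPKM. In the KO-labelled set, tumors ran from 83.4 through 790.1 to 1414 FPKM, and normal tissue from 3613 through 4631 to 7552 FPKM. The KO-labelled ranges were apart, whereas WT-young tumor 4 (2788 FPKM) reached above 1 normal library. Zg16 fell by 3.04 (SE 0.5, limma adjusted p = 5.82e-05) with the KO label and by 1.86 (SE 0.636, limma adjusted p = 0.0309) with the WT label. The WT-label call did not hold without WT-young tumor 1 (-1.53, limma adjusted p = 0.0886), WT-young tumor 2 (-1.66, 0.0744), WT-young normal 2 (-1.83, 0.0583) or WT-old normal 2 (-1.60, 0.0897). It was also lost under quantile normalization (-1.35, limma adjusted p = 0.112), centring on epithelial markers (-1.31, 0.0515) and the replicate block (-2.25, 0.0574), without the 3 WT-old libraries (-1.67, 0.177) or the 6 libraries with high Xist (-1.86, 0.0517), and with the Hoxd13 covariate (-1.66, 0.0874). The KO-label call was kept under every alternative run.

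Fcgbp, the Muc2-binding protein, was lower in tumors with the KO label. KO-labelled tumors ran from 33.5 through 183 to 334 FPKM and normal tissue from 363 through 495 to 558 FPKM. WT-labelled tumors measured 129.6, 93.6, 149, 263 and 132 FPKM, and normal tissue 184, 258, 242 and 434 FPKM. The KO-labelled ranges did not overlap, but 1 WT-labelled tumor (WT-young tumor 4) exceeded 3 of the 4 normal libraries. Fcgbp fell by 1.56 (SE 0.360, limma adjusted p = 0.00139) with the KO label, a call kept under every alternative run, and measured -0.88 (SE 0.458, limma adjusted p = 0.147) with the WT label.

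Tff3, the trefoil peptide, showed a smaller difference. KO-labelled tumors ran from 538 through 1119.8 to 2018 FPKM and normal tissue from 1472 through 2806 to 4443 FPKM. WT-labelled tumors measured 977, 876, 1418, 2239.9 and 834 FPKM, and normal tissue 1260.0, 2698, 1727 and 3207 FPKM. Tumor and normal ranges overlapped with both labels. Tff3 fell by 1.15 (SE 0.309, limma adjusted p = 0.0044) with the KO label and measured -0.82 (SE 0.393, limma adjusted p = 0.114) with the WT label. The KO-label value was -0.46 (limma adjusted p = 0.497) without the 6 libraries with high Xist, and -0.36 (limma adjusted p = 0.298) after quantile normalization.

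Spink4 had the highest tumor median of the 8 genes with both labels and did not pass with either label. KO-labelled tumors ran from 1984 through 4156 to 5087 FPKM and normal tissue from 2436 through 4338 to 9037 FPKM. WT-labelled tumors measured 3991, 2544, 3497, 3278 and 1089 FPKM, and normal tissue 5301, 1104, 3341 and 3801 FPKM. The 2 KO-1-hetero normal libraries (8609 and 9037 FPKM) stood above all others, and the remaining libraries overlapped. The difference was -0.42 (SE 0.348, limma adjusted p = 0.326) with the KO label and -0.16 (SE 0.443, limma adjusted p = 0.812) with the WT label, and both values turned positive under quantile normalization and under centring on epithelial markers.

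The difference between the labels in these tumor-normal changes was tested as an interaction. None of the 8 genes passed, and none of the 13799 genes did (0% called by limma, 654 genes at an unadjusted p under 0.05, 0 of them among the 8). The largest interaction values were 1.52 for Muc2 (SE 1.05), -1.18 for Zg16 (SE 0.809) and 1.03 for Spdef (SE 0.660), with limma adjusted p of 0.986 for each. The calls that Muc2 passed only with the WT label, and Fcgbp and Tff3 only with the KO label, are therefore not shown to differ between labels. The Muc2 interaction changed sign, to -0.69, without the 6 libraries with high Xist.

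The second comparison, KO against WT label within tumors (9 against 5), addresses whether the label goes with mucus gene levels in the tumors. None of the 8 genes passed limma, where 0.00725% of all genes (1 gene) did, and none of the 8 had an unadjusted p under 0.05, against 1147 of all 13799 genes. Muc2 averaged 637 ± 410.0 FPKM (SD, n = 9) over the tumors labelled KO, while those labelled WT averaged 232 ± 77.0 FPKM (SD, n = 5), a log2 difference of 1.28 (SE 0.684, limma adjusted p = 0.646). Agr2 differed by 0.59 (SE 0.370) and Spdef by 0.67 (SE 0.431), while Zg16 differed by -0.77 (SE 0.529), the largest difference below 0. The other values were 0.48 for Spink4, 0.28 for Atoh1, 0.16 for Fcgbp and -0.048 for Tff3, and limma's adjusted p ran from 0.646 to 0.980 over the 8 genes. The tumor ranges of the labels overlapped for each gene.

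In normal tissue (6 KO-labelled against 4 WT-labelled libraries) none of the 8 genes passed limma, and none of all genes did (0%, with 645 genes at an unadjusted p under 0.05). Fcgbp had the largest difference, 0.84 (SE 0.441), with 483 ± 77.8 FPKM (SD, n = 6) against 279.6 ± 108 FPKM (SD, n = 4). Spdef had the lowest, -0.36 (SE 0.499), and turned positive without WT-old normal 1 (0.058), the library with the highest Spdef. The adjusted p from limma was 1 for all 8 genes.

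The title groups were then examined one by one in the model of all 10 groups, in which the small groups share one estimate of the spread. Within KO-1-hetero, all 8 genes were lower in each of the 3 tumors than in both normal libraries. Still, none of the 8 passed limma, where 14.1% of all genes did. An unadjusted p under 0.05 in limma was found for 3 of the 8, against 4326 of all 13799 genes. The share of all genes whose ranges were apart was not counted, here or in the title group comparisons below. Zg16 came closest, with 1086, 790.1 and 676 FPKM in tumors against 4849.9 and 4203 FPKM in normal tissue, a difference of -2.43 (SE 0.821, limma adjusted p = 0.0566). Atoh1 measured 20.9, 18.6 and 18.9 FPKM against 30.9 and 42.1 FPKM (-0.86, limma adjusted p = 0.183). When only these 5 libraries entered the fit, 6 of the 8 passed. The share of all genes passing is not given for this fit, so this count cannot be set against it.

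Within KO-8-hetero, 4 of 8 genes passed and fell (Fcgbp, Zg16, Tff3 and Atoh1), where 43.1% of all genes passed and 21.2% fell. Zg16 measured 83.4, 196 and 1059 FPKM in tumors against 5021 and 7552 FPKM in normal tissue, a difference of -4.56 (SE 0.821, limma adjusted p = 0.000515). Tff3 measured 668, 538 and 1243 FPKM against 2742 and 4443 FPKM (-2.19, SE 0.460, limma adjusted p = 0.00152). Fcgbp differed by -2.22 (SE 0.585, limma adjusted p = 0.00664) and Atoh1 by -1.97 (SE 0.430, limma adjusted p = 0.00198). Tumor and normal ranges were apart for all 4, and the Fcgbp call did not hold without KO-8-hetero normal 2 (limma adjusted p = 0.0876). Muc2 lay the other way, with 217, 342 and 1508 FPKM in tumors and 193 and 215 FPKM in normal tissue, so that each tumor exceeded both normal libraries, but the difference of 1.24 (SE 0.857, limma adjusted p = 0.252) did not pass. It passed, at 2.11 (limma adjusted p = 0.0277), when libraries were centred on epithelial markers, which moved the median of all genes there to 0.89. With only these 5 libraries in the fit, 1 of the 8 genes passed, again without a share of all genes beside it.

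Within KO-8-homo, 3 of 8 genes passed and fell, where 23% of all genes passed and 11.2% fell. Muc2 measured 347, 654 and 435 FPKM in tumors against 4114 and 3405 FPKM in normal tissue (-3.01, SE 0.857, limma adjusted p = 0.0194). Agr2 differed by -2.12 (SE 0.610, limma adjusted p = 0.0202) and Atoh1 by -1.45 (SE 0.430, limma adjusted p = 0.0232). None of the 8 genes passed without tumor 1, without normal 1 or without normal 2, but the 3 differences kept their direction. In that order Muc2 was -2.81, -2.88 and -3.15, Agr2 -1.98, -2.20 and -2.04, and Atoh1 -1.21, -1.67 and -1.23. With log2(Hoxb13 + 1) of each library as a covariate, Muc2 was -1.01 (limma adjusted p = 0.294), Agr2 -1.07 (0.279) and Atoh1 -1.20 (0.169). With Hoxd13 as the covariate they were -1.62 (limma adjusted p = 0.0776), -1.27 (0.108) and -1.10 (0.120). Tff3, which fell in KO-8-hetero, measured 1309, 1104 and 2004 FPKM in KO-8-homo tumors and 1636 and 1472 FPKM in normal tissue, with overlapping ranges (-0.12, SE 0.460).

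Within WT-young, 2 of 8 genes passed and fell, where 26.1% of all genes passed and 12.5% fell. These were Atoh1 (-1.71, SE 0.408, limma adjusted p = 0.00604) and Agr2 (-1.64, SE 0.578, limma adjusted p = 0.0459). The normal libraries differed from each other, with Muc2 at 3819 and 297 FPKM, Agr2 at 5684 and 1109 FPKM and Spdef at 145 and 15.0 FPKM. The Agr2 difference was -0.46 (limma adjusted p = 0.632) and the Atoh1 difference -1.51 (limma adjusted p = 0.0583) without normal 1. Agr2 also did not pass without tumor 1 (limma adjusted p = 0.0934), tumor 2 (0.0943) or tumor 3 (0.0645). Muc2 did not pass (-2.10, SE 0.813, limma adjusted p = 0.0653) and passed at -3.94 (limma adjusted p = 0.00384) without normal 2. WT-old had 1 tumor and was not tested on its own, and that tumor lay below both of its normal libraries for all 8 genes.

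**Figure D3:**
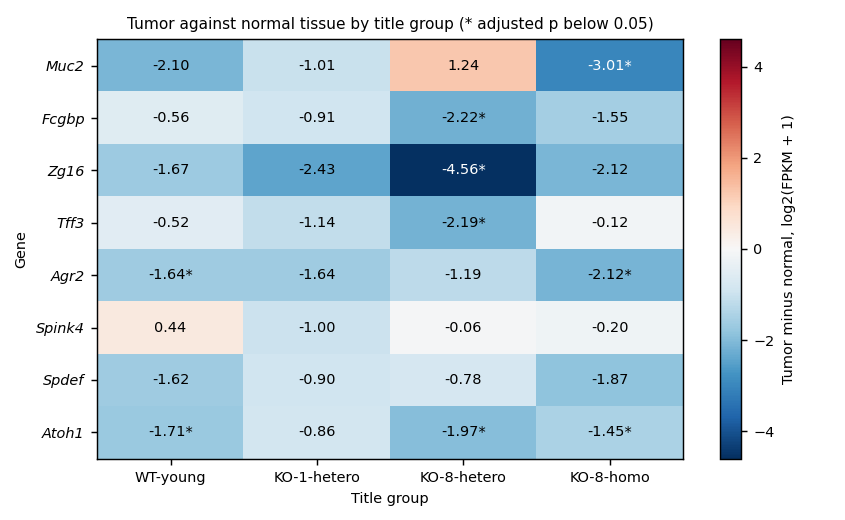
Tumor minus normal difference in log2(FPKM + 1) of the 8 genes in 4 title groups, coloured from blue (lower in tumors) to red (higher); asterisks mark limma's adjusted p below 0.05. Zg16 in KO-8-hetero has the lowest value, -4.56, and Muc2 in the same group is above 0 at 1.24.

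The difference between KO-8-hetero and KO-8-homo in the tumor-normal change was tested after these values had been seen. None of the 8 genes passed limma, where 2.86% of all genes did. In limma, 3 of the 8 had an unadjusted p under 0.05, against 3118 of all 13799 genes. Muc2 differed by 4.25 (SE 1.21, limma adjusted p = 0.0636) and Tff3 by -2.07 (SE 0.651, limma adjusted p = 0.0856). Muc2 passed without KO-8-hetero tumor 1 (4.83, limma adjusted p = 0.0297) or without KO-8-hetero normal 1 (4.18, limma adjusted p = 0.0444), and Tff3 without KO-8-hetero normal 1 (-2.41, limma adjusted p = 0.0269). Between the normal libraries alone, also compared after seeing the values, Muc2 was higher in KO-8-homo (4114 and 3405 FPKM) than in KO-8-hetero (193 and 215 FPKM), by 4.19 (SE 0.939, limma adjusted p = 0.0139). It was the only 1 of the 8 genes to pass, where 10.6% of all genes did and 5.75% were higher, and the call did not hold without KO-8-hetero normal 2 (limma adjusted p = 0.152), KO-8-homo normal 1 (0.135) or KO-8-homo normal 2 (0.0684). Both KO-8-hetero normal libraries had Xist of at least 1 FPKM and both KO-8-homo normal libraries were below it. Hoxb13 and Hoxd13 were also higher in both KO-8-hetero normal libraries than in both KO-8-homo ones. Title group, Xist status and the levels of these Hox genes therefore cannot be told apart here. With Hoxb13 as a covariate the Muc2 difference between these normal libraries was 0.89 (limma adjusted p = 0.591). With Hoxd13 as the covariate it was 1.89 (limma adjusted p = 0.114). The Muc2 value of 4.25 ran from 0.30 to 4.83 over the 20 alternatives run.

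Tumors of the KO title groups were each compared with the 4 WT-young tumors, which these comparisons share. None of the 8 genes passed in any of the 3 comparisons. Of all genes, 2.88% passed for KO-1-hetero, 0.00725% for KO-8-hetero and 0.457% for KO-8-homo. In that order, limma gave an unadjusted p under 0.05 for 1, 1 and 0 of the 8. Among all 13799 genes the numbers were 2632, 961 and 1399. In KO-1-hetero, 4 genes were higher in each of the 3 tumors than in every WT-young tumor. These were Muc2 (744 ± 285 against 254 ± 67.5 FPKM, SD, n = 3 and 4), with a difference of 1.5 (SE 0.717), Agr2 (0.99, SE 0.510), Spdef (0.98, SE 0.591) and Atoh1 (0.93, SE 0.360), with limma adjusted p from 0.17 to 0.389. In KO-8-homo, Muc2 (479 ± 158 FPKM, SD, n = 3) was above all WT-young tumors by 0.90 (SE 0.717, limma adjusted p = 0.721). In KO-8-hetero, Zg16 had the largest difference, -1.91 (SE 0.687, limma adjusted p = 0.705), with overlapping ranges.

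Among the KO groups, none of the 8 genes passed between KO-8-homo and KO-8-hetero tumors, where 0.0507% of all genes did. In limma, 2 of the 8 had an unadjusted p under 0.05, against 801 of all 13799 genes. The largest differences were 1.82 for Zg16 (SE 0.734) and 0.90 for Tff3 (SE 0.412). None of the 8 passed between tumors of KO-1-hetero and those of KO-8-hetero either, where 0% of all genes did (1363 genes at an unadjusted p under 0.05, 3 of them among the 8). Atoh1 was the only 1 of the 8 whose ranges were apart, at 20.9, 18.6 and 18.9 FPKM in KO-1-hetero and 7.64, 3.55 and 14.5 FPKM in KO-8-hetero (1.27, SE 0.385, limma adjusted p = 0.258). KO-8-hetero tumor 3 was the highest of its group for all 8 genes, and without it 3 of the 8 passed, among them Fcgbp (2.23, limma adjusted p = 0.0232) and Atoh1 (1.71, limma adjusted p = 0.0384). No share of all genes is given for the fit without this tumor. That tumor also stood apart from tumors 1 and 2 of its group by Xist (48.8 FPKM, against below 1 FPKM in both), Hoxb13 (16.3 against 136 and 85.9 FPKM) and Hoxd13 (0.226 against 55.1 and 27.0 FPKM). Without all 6 libraries with high Xist, which include this tumor and KO-1-hetero tumor 3, none of the 8 passed.

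By group means in tumors, Muc2, Agr2 and Spdef shared one order of the title groups, with KO-1-hetero first, KO-8-hetero next, then KO-8-homo, after it WT-young, and last the single WT-old tumor. KO-8-hetero owed its place to tumor 3, with Muc2 at 1508 FPKM against 217 and 342 FPKM in the other tumors, and the neighbours in this order overlapped from KO-1-hetero to KO-8-homo. Between KO-8-homo and WT-young, Agr2 and Spdef overlapped and Muc2 did not. Fcgbp and Atoh1 were lowest in KO-8-hetero (132 ± 124 and 8.56 ± 5.53 FPKM, SD, n = 3), next to the single WT-old tumor (132 and 9.12 FPKM). Zg16 had another order, with WT-young highest (1287 ± 1085 FPKM, SD, n = 4) and KO-8-hetero lowest (446 ± 534 FPKM, SD, n = 3), and neighbours overlapped throughout.

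In normal tissue Muc2 differed more between libraries of one label than between the label means, and it moved with the levels of Hox genes, which are known for levels that depend on the position along the colon. This was noticed in the data and is given as a description. In 4 normal libraries (KO-8-homo 1 and 2, WT-old 1, WT-young 1) Hoxb13 was 6.63 to 36.0 FPKM, Hoxd13 was below 1 FPKM and Hoxb6 was 10.1 to 29.2 FPKM. Their Muc2 levels were 4114, 3405, 2829 and 3819 FPKM in that order, with Zg16 at 3613, 4412, 2826 and 2559 FPKM, so that the ratio of Zg16 to Muc2 was 0.670 to 1.30. In the other 6 normal libraries Hoxb13 was 183 to 697 FPKM, Hoxb6 was below 1 FPKM, Muc2 was 193 to 1562 FPKM and the ratio was 2.69 to 35.1. In these 6 libraries Muc2 was lower throughout, Tff3 was higher (2698 to 4443 FPKM against 1260.0 to 1727 FPKM), and Atoh1 overlapped (25.6 to 42.1 FPKM against 28.5 to 43.5 FPKM).

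**Figure D4:**
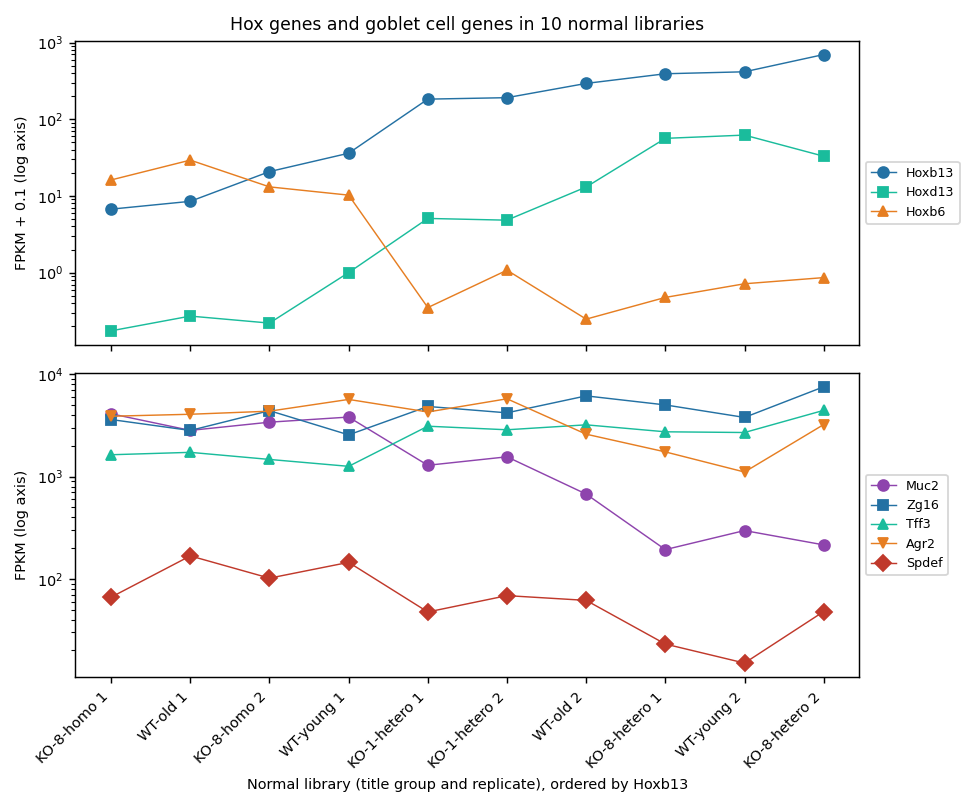
Hox genes (upper panel, FPKM + 0.1) and 5 goblet cell genes (lower panel, FPKM) in the 10 normal libraries, ordered by Hoxb13, both on log axes; lines only link the points of a gene. Muc2 runs from 2829 to 4114 FPKM in the 4 libraries on the left and from 193 to 1562 FPKM in the other 6, while Zg16 stays between 2559 and 7552 FPKM.

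The labels do not give the position from which a piece was taken. With log2(Hoxd13 + 1) of each library as a covariate, an alternative added after seeing the data, the WT-label tumor-normal difference of Muc2 was -0.94 (limma adjusted p = 0.162), and the KO against WT difference of Muc2 in tumors changed from 1.28 to -0.13. Agr2, Spdef, Fcgbp and Atoh1 also changed sign in that tumor comparison, to -0.040, -0.17, -0.087 and -0.016. With Hoxb13 as the covariate, also added, the KO-label tumor-normal difference of Muc2 was -1.10 (limma adjusted p = 0.0166) and that within KO-8-hetero turned from 1.24 to -0.70. Hoxd13 was 50.9 to 64.6 FPKM in the 4 WT-young tumors and 0.226 to 55.1 FPKM in the 9 KO-labelled tumors. The part of colon position in these results was not tested.

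Across the 14 tumors all 28 pairs of the 8 genes had a Pearson correlation above 0 on log2(FPKM + 1), from 0.23 (Zg16 with Spink4) to 0.94 (Muc2 with Spdef), with a median of 0.62. Agr2 with Spdef and Fcgbp with Atoh1 both gave 0.90, Muc2 with Agr2 0.89 and Zg16 with Tff3 0.77. The tumors share library preparation and differ in tissue makeup, and all 8 genes are goblet cell genes, so these values describe the tumors only. Across the 10 normal libraries, 16 pairs were above 0 and 12 below, from -0.81 (Muc2 with Tff3) to 0.89 (Agr2 with Spink4), and Muc2 with Zg16 gave -0.68 against 0.25 in tumors. Muc2 with Spdef (0.81) and Agr2 with Spdef (0.84) were high in normal tissue as well.

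**Figure D5:**
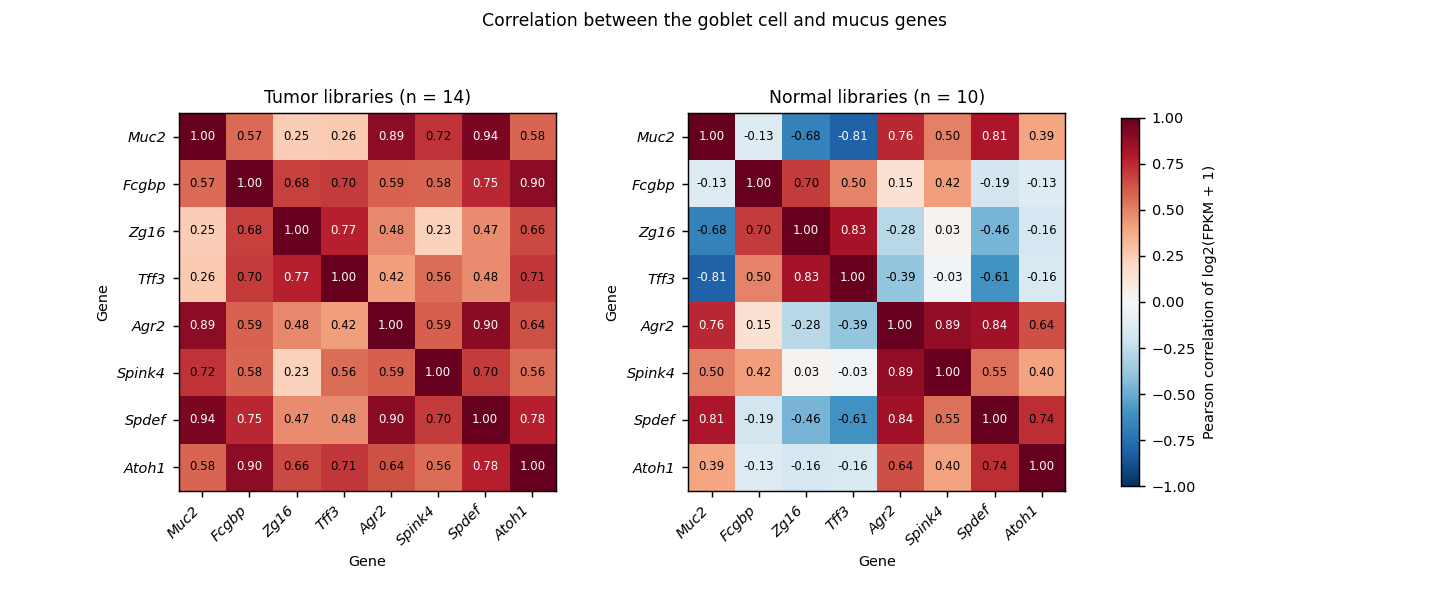
Pearson correlation of log2(FPKM + 1) between the 8 genes across 14 tumor libraries (left) and 10 normal libraries (right); blue is below 0 and red above. In tumors every pair is above 0, while in normal tissue Muc2 is below 0 with Tff3 (-0.81) and Zg16 (-0.68).

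The genes outside the set most like its mean z-score over the 14 tumors were Stard10 (r = 0.95), Galnt7 (0.95), Tpsg1 (0.94), Fam174b (0.94), P2rx4 (0.93) and Hgfac (0.93). Over all 24 libraries they were Tpsg1 (0.97), Fam174b (0.96), P2rx4 (0.96), Hpd (0.95), Hepacam2 (0.95) and Capn9 (0.94). Tpsg1, Fam174b and P2rx4 were in both lists. Galnt7 is a transferase of mucin-type O-glycosylation, and Tpsg1 and Capn9 were on the list of further goblet cell genes.

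Lists of related genes were counted in the same way, and their counts stand beside the shares of all tested genes, of which 14.8% fell and 15.5% rose with the WT label and 23.2% fell and 24.1% rose with the KO label. Of 18 further goblet cell genes tested, 9 fell and none rose in WT-labelled tumors, and 11 fell and 1 rose in KO-labelled tumors, with medians of -0.97 and -1.13. Klk1, a kallikrein protease, fell by 3.28 (limma adjusted p = 0.000158) and 3.29 (limma adjusted p = 3.4e-06). In WT-labelled tissue its mean was 2843 ± 715 FPKM (SD, n = 4) when normal but 312 ± 138 FPKM (SD, n = 5) in the tumors. Bcas1 fell with both labels (-0.86 with WT and -0.91 with KO), as did Tpsg1 (-1.87 and -1.63), Nlrp6 (-1.66 and -1.76), an inflammasome gene linked to mucus release, and the phospholipase gene Pla2g10 (-0.65 and -1.01). Tff1, a gastric trefoil peptide, was listed at 0 in all KO-labelled normal libraries and rose in the tumors of that label (1.18), while the WT-label value of 0.69 did not pass (limma adjusted p = 0.0598). Of 5 other mucins tested, Muc6, a gastric gel-forming mucin, rose with both labels (1.46 and 1.41, limma adjusted p = 0.0418 and 0.00846), Muc20 rose by 0.52 with the KO label and measured -0.22 with the WT label (limma adjusted p = 0.453), and none fell.

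Of 27 genes of mucin O-glycosylation and sulfation, 14 fell and none rose in WT-labelled tumors, and 12 fell and 2 rose in KO-labelled tumors, with medians of -0.97 and -0.64, and 13 did not pass in each comparison. In both, the share that fell was above that of all tested genes, while the share called in either direction with the KO label, 14 of 27, was near the 47.2% of all genes. B4galnt2, a glycan-extending transferase, fell by 3.33 with the WT label and by 1.74 with the KO label, the sialyltransferase St3gal4 by 1.79 and 1.84, Galnt10 by 1.59 and 1.13, and C1galt1c1, the chaperone of the core 1 synthase, by 0.91 and 1.04. Of 18 genes of the endoplasmic reticulum and secretion, 8 fell and 1 rose with the WT label and 7 fell and 2 rose with the KO label, and 9 did not pass in each comparison. Creb3l1, a transcription factor of the secretory pathway, fell by 2.40 (limma adjusted p = 1.27e-05) and 1.51 (limma adjusted p = 2.36e-05), and Ern2, the stress sensor of mucus-secreting cells, by 1.05 and 0.61.

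Of 22 regulators of the secretory lineage and the Notch pathway, which opposes Atoh1, 5 fell and 1 rose with the WT label and 6 fell and 8 rose with the KO label, with medians of -0.15 and 0.039. Klf4, a factor of goblet cell maturation, fell by 1.63 with the KO label and by 1.07 with the WT label, and Gfi1, a factor acting after Atoh1, by 1.01 and 0.74. With the WT label Cdx2, an intestinal homeobox factor, fell by 3.04 and the Notch target Nrarp by 1.08, and with the KO label they fell by 1.43 and 0.68. The Notch ligand Dll4 rose by 0.62 (WT label) and 0.53 (KO label), and the ligand Jag2 rose by 1.07 with the KO label and measured 0.46 with the WT label (limma adjusted p = 0.166). In KO against WT tumors 0 genes of any of these 5 lists passed limma. In the order given, 1, 2, 5, 4 and 3 genes had an unadjusted p under 0.05, against 1147 of all 13799 genes. Galnt12 stands on both the goblet cell and the glycosylation list. Under an alternative that centres each library on epithelial markers, the median of all genes shifts to 0.57 (WT label) and 0.67 (KO label), which adds to each difference. The 8 genes then had medians of -1.29 and -0.66, with 3 and 4 of them called, all lower. The shares of all genes given above do not apply to this alternative. Of all its calls, 93.4% (WT label) and 94.6% (KO label) were higher. With the WT label 4906 of all genes were called higher and 348 lower.

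Markers of other cells were counted beside the goblet cell genes, to be read against the same shares of all tested genes (WT label 14.8% lower and 15.5% higher, KO label 23.2% lower and 24.1% higher). The pan-epithelial list had 3 of 10 markers lower in WT-labelled and 5 of 10 in KO-labelled tumors, and their summed level was 5991 to 15179 FPKM in WT-labelled tumors and 9499 to 15721 FPKM in normal tissue, and 5794 to 12185 FPKM against 11326 to 21129 FPKM with the KO label. All 6 smooth muscle markers fell with both labels, from 919 to 7073 FPKM in WT-labelled normal tissue to 172 to 2852 FPKM in tumors, and from 1390 to 4506 FPKM to 235 to 1280.3 FPKM with the KO label. Other differentiated epithelial cells moved with the goblet cell genes, as 5 of 8 absorptive colonocyte markers fell with both labels (summed 642 to 2522 FPKM in tumors and 5359 to 19390.3 FPKM in normal tissue with the WT label), and 5 and 6 of 6 enteroendocrine markers. Of 6 Paneth-like markers, a list that shares Ang4 with the goblet cell genes, 5 rose in WT-labelled and 4 in KO-labelled tumors, with Lyz1 at 1309 ± 697 FPKM in WT-labelled tumors (SD, n = 5) and 1168 ± 686 FPKM in KO-labelled tumors (SD, n = 9). Stem cell markers (3 of 4 with both labels) and leukocyte markers (3 of 7 with both labels) rose too. Of 4 tuft cell markers 1 rose and 2 fell with both labels, and of 6 fibroblast markers 1 rose with the WT label, while 4 rose and 1 fell with the KO label. None of these markers was at 0 in all libraries of a label and tissue. The part of tissue makeup in the goblet cell results was not tested.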

How the data were processed

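Expression was measured by RNA-seq in 24 libraries of mouse colorectal tissue. The kits named in the labels were miRNeasy for total RNA and TruSeq Stranded mRNA for the libraries. Values were deposited by the authors as FPKM, in 1 table for each library. The submitters' processing notes name TopHat2 2.1.1, Bowtie2 2.2.8, SAMtools 0.1.18, Cuffdiff 2.2.1 and the build mm10, and the annotation is not given in the sources used here. Fragment totals are unknown, so no counting interval was computed. Relative depth was estimated from the steps of low values.

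Values were transformed as log2(FPKM + 1), which understates changes of low genes, and symbols with at least 1 FPKM in at least 4 libraries were tested (13799 of 24346). limma 3.58.1 in R 4.3.3 was run on all 24 libraries with an intensity trend, two-sided, with Benjamini-Hochberg adjustment and a threshold of 0.05. A model of the 4 combinations of label and tissue and a model of the 10 title groups gave 16 comparisons, of which 2 were added after the data were seen. Descriptions and figures used Python 3.11.15 and pandas 2.3.3. The fits were tested on simulated data. Alternatives covered the pseudocount (0.1), no filter, 2 other scalings, no trend, only the libraries compared, a replicate block, libraries left out and, added later, 2 Hox covariates.

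The 8 genes and the gene lists were chosen with earlier results of these data known. From each list the genes named were up to 4 with the smallest p among those past the threshold with each label. One gene that this rule names is not reported here. Genes most like the set were ranked by correlation with its mean z-score, over tumors and over all libraries. Hox genes and Xist were described after their values were seen. Sequences come from RefSeq on GRCm38.p6 and gene positions from GENCODE vM21 on GRCm38, the assembly also called mm10.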

Additional observations from a re-analysis of the deposited data

Results flagged for a closer look

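Zg16 in KO-8-hetero normal 2 measured 7552 FPKM, the highest of the 6 KO-labelled normal libraries and apart from the next, KO-8-hetero normal 1, at 5021 FPKM. The gap was 0.643 of the group's whole range. This library also had the highest summed FPKM of all genes, 1016810, against 583474 to 745639 in the other KO-labelled normal libraries. The part of this total in the gap was not tested. About 1 in 20 groups is expected to show such a gap by chance, and this was the only one among the 40 groups examined.

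The tumor-normal difference of Muc2 differed in sign between title groups. In KO-8-hetero every tumor was above every normal library (1.24 on the log2 scale), while in KO-1-hetero, KO-8-homo and WT-old every tumor was below every normal library. Of these contrasts only KO-8-hetero against KO-8-homo was tested (4.25, limma adjusted p = 0.0636), and the others were not tested. The KO-8-hetero difference itself did not pass limma and turned to -0.70 with the Hoxb13 covariate. In that group the lowest tumor was at 217 FPKM and the highest normal library at 215 FPKM, while tumor 3 was at 1508 FPKM. WT-old had 1 tumor.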

How the results depend on the processing

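The results comprised 57 log2 differences of single genes and the number of the 8 genes called in each of 16 comparisons. Over 1176 recomputed single-gene values, 1061 kept direction and side of the threshold, 62 fell short of it, 18 newly passed it and 35 changed sign, none of them a difference that had passed. The causes of the changed values were not tested. For the recomputed counts the calls over all genes are not printed here, except for the 2 other scalings. A changed count is therefore not read as a result about the 8 genes. With the WT label, 1958 of all genes were called higher and 2350 lower under quantile normalization, and 4906 and 348 under centring. For WT-young these numbers were 1880 and 1984, then 803 and 450. For KO-1-hetero they were 817 and 80 under centring.

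The WT-label count of 5 became 3 under quantile normalization and 3 when centred on epithelial markers. It was 1 without the WT-old libraries and 3 with the Hoxd13 covariate. With each library left out it ran from 3 to 6, 3 being without WT-young tumor 2. The KO-1-hetero count of 0 became 1 when centred, 6 with only its own libraries and 2 with either Hox covariate. The KO-8-hetero count of 4 became 1 with only its own libraries. The KO-8-homo count of 3 became 5 without high-Xist libraries, 6 with only its own libraries and 0 with either covariate, and ran from 0 to 3 with libraries left out. The WT-young count of 2 became 1 with no filter, quantile normalization, centring, only its own libraries or Hoxd13, and 4 with Hoxb13, and ran from 1 to 4 with libraries left out, 4 being without normal 2. KO-1-hetero against WT-young tumors went from 0 to 1 with only its own libraries. Left-out libraries gave 0 to 3 for KO-1-hetero against KO-8-hetero tumors (3 without KO-8-hetero tumor 3), 0 to 2 for the difference of KO-8-hetero from KO-8-homo, then 0 to 1 for their normal libraries, where either covariate gave 0.

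Signs changed as follows. Spink4, tumor against normal with the WT label, became 0.36 (quantile), 0.39 (centred), 0.44 (without WT-old), 0.27 (Hoxd13), and -0.63 to 0.16 with libraries left out (above 0 without WT-young normal 1 or WT-old tumor 1), and with the KO label 0.46 (quantile) and 0.22 (centred). Tff3, KO against WT tumors, became 0.088 (quantile), 0.019 (centred), 0.11 (block), 0.15 (Hoxd13), 0.076 (Hoxb13), and -0.17 to 0.18 with libraries left out (above 0 without KO-8-hetero tumor 1 or 2 or WT-young tumor 3 or 4). In the same comparison Hoxd13 gave -0.13 (Muc2), -0.087 (Fcgbp), -0.040 (Agr2), -0.17 (Spdef) and -0.016 (Atoh1), and Fcgbp was -0.073 without high-Xist libraries, as was the Muc2 interaction at -0.69. Spdef, KO against WT normal tissue, became 0.18 (without WT-old), 0.24 (without high Xist) and -1.07 to 0.058 with libraries left out (above 0 without WT-old normal 1). Tff3 in KO-8-homo became 0.31 (quantile), 0.47 (centred) and -0.37 to 0.062 with libraries left out (above 0 without tumor 2), and Muc2 in KO-8-hetero -0.70 (Hoxb13). Against WT-young tumors, Hoxd13 gave -0.26 (Muc2), -0.092 (Agr2) and -0.39 (Spdef) for KO-1-hetero and -0.16 (Muc2) for KO-8-homo.

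Quantile normalization and centring moved the share of higher calls from 51.1% to 45.5% and 93.4% (WT label) and from 50.9% to 47.4% and 94.6% (KO label). Same-numbered tumor and normal libraries did not deviate together (1 of 8 pairs with a correlation over 0.1, 4 of 8 closest to their own number), so numbers were taken as names. With the replicate block 4 of 8 genes passed with the WT label, 6 with the KO label, and the counts of KO-1-hetero and of the KO-8-hetero minus KO-8-homo difference went from 0 to 1. KO-1-hetero and KO-8-hetero could not be fitted without high-Xist libraries, which leave no normal tissue. Unknown fragment totals limit the precision of low genes.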
